A study of Danio rerio and Garra andruzzii with 24 samples.

Results

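PAC-2 cells, a fibroblast line made from zebrafish embryos, were compared after 6 h of blue light (468 nm) and before the light was switched on (0 h, the DD control). The 2 groups held 3 libraries each, or 6 of the 24 libraries of the series, and were chosen by their labels alone. All cultures grew without phenol red and spent 2 days in darkness before the light, so that the 6 h cells were also 6 h older than the 0 h cells. No dark library was made after 0 h, and what the light did cannot be told apart from what passing time did. It is not stated whether replicate libraries came from separate cultures, so that p-values measure only the spread between these libraries, part or all of which may be technical. The remaining PAC-2 libraries were made after 1 h and 3 h of light. The question addressed here was which functions other than the circadian clock, heme metabolism and mitochondria changed, in particular where the change was moderate.

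Many zebrafish cells carry their own photoreceptors and respond to light without eyes. In such cells, visible light is known to act on the clock, on DNA repair and, through reactive oxygen species, on stress responses. Cell division in fish tissues is also known to be gated by the clock and to follow the light and dark cycle. Fibroblasts in culture divide, secrete matrix and take up amino acids from the medium, and the mRNA of these functions is abundant in them.

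The libraries held 23059619 to 29104078 counts at 6 h and 20037859 to 26161339 counts at 0 h. Of 34 fibroblast markers, 26 exceeded 1 TPM (a level corrected for gene length and library size) at 6 h and 24 at 0 h. The summed level of these markers was 4620 to 4670 TPM at 6 h and 4600 to 4810 TPM at 0 h. Of 20 blood and immune markers, none exceeded 1 TPM at either time. Of 19 epidermis markers, 5 did at both times, with a summed level of 11000 to 12200 TPM at 6 h and 10600 to 11700 TPM at 0 h. In bulk RNA, fewer cells of a type and less RNA per cell cannot be told apart.

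Of 35886 genes in the table, 18017 passed the filter on low counts and were tested with edgeR's quasi-likelihood test. The median log2 fold change of 6 h over 0 h was 0.0024. At a Benjamini-Hochberg adjusted p under 0.05, 2546 genes (14.1%) were higher at 6 h and 2686 (14.9%) were lower. Most of these changes were small, and 1292 of the higher and 2173 of the lower genes changed by less than 0.5 on the log2 scale. A change was called moderate when it passed this test and lay between 0.5 and 1 on the log2 scale, which is 1.41-fold to 2-fold. In this range, 837 genes (4.65%) were higher and 452 (2.51%) lower. At least 2-fold with an adjusted p under 0.001, 264 genes (1.47%) were higher and 13 (0.0722%) were lower.

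Of the genes that passed the test, 48.7% were higher at 6 h. When the libraries were scaled by their totals alone, without edgeR's TMM factors, this share was 59.1%, and the share of moderate genes that were higher was 76.6% instead of 64.9%. Genes of higher abundance lay lower at 6 h. The median log2 fold change was 0.03 over 13916 genes with a mean under 1000 normalized counts, −0.05 over 3741 genes with 1000 to 10000, and −0.12 over 360 genes with 10000 or more. Among genes with 1000 to 10000, 20% were higher and 31.9% lower, and among those under 1000, 12.6% and 9.91%. Among the 360 most abundant genes, 10.3% were higher and 31.4% lower. The function lists below hold many abundant genes, and the part of abundance in their counts was not tested. A fitted trend of the log2 fold change with gene length ran from −0.050 to 0.435, and one with gene span from −0.106 to 0.242. The length trend averaged −0.044 over the shortest genes and 0.135 over the longest. What part gene length had in the list counts and medians was not tested either.

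**Figure D1:**
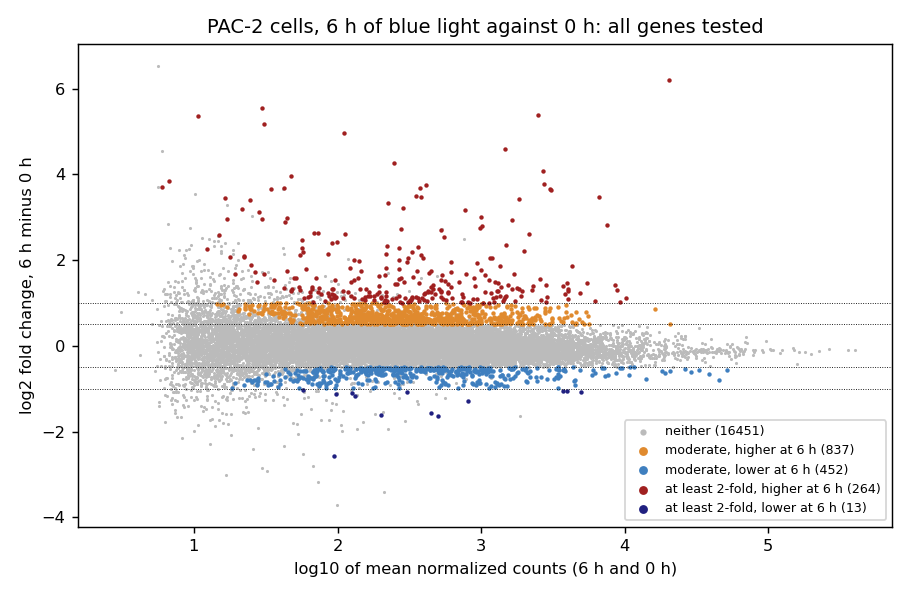
Log2 fold change of 6 h over 0 h for all 18017 genes tested, against the log10 of the mean normalized counts. Each point is a gene, dotted lines mark 0.5 and 1 in both directions, and colours mark 837 moderate genes higher and 452 lower at 6 h, and 264 genes higher and 13 lower by at least 2-fold; the strong changes lie almost all above 0, while moderate changes lie on both sides.

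After removal of genes on the lists of clock factors, heme and iron, mitochondria and the study's own mitochondria and heme-related genes, 801 moderate genes were higher and 443 lower at 6 h. Of these, 669 of the higher and 339 of the lower genes code for proteins, and 116 and 91 are loci without an annotated gene. In 788 of the 801 higher genes and 434 of the 443 lower genes, the 6 h and 0 h libraries did not overlap. Over all genes tested, 21.6% lay wholly higher and 21.7% wholly lower at 6 h, and the moderate genes were called on the same counts. Nearly all genes named below were also chosen on these counts, so that a lack of overlap in them is no separate evidence.

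Genes of mitosis, the step in which a cell divides its chromosomes, were lower at 6 h. Of 49 mitosis genes tested, 42 fell (85.7%, against 14.9% of all genes) and 1 rose (2.04%, against 14.1%) at 6 h. Of the 42, 32 were moderate. Over the 49, the median log2 fold change was −0.68. When 1 library was left out at a time, 41 or 42 genes fell.

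cdc20, an activator of the anaphase-promoting complex that lets chromosomes separate, lies on chromosome 2 at 19217586 to 19234469 (build GRCz11). It had 2519, 2542 and 2610 normalized counts in the 6 h libraries, against 5192, 5214 and 5533 in the 0 h libraries. The highest 6 h library lay below the lowest 0 h library by far more than the spread within either group, and the log2 fold change was −1.05 (standard error 0.05, adjusted p = 3.4e-11 from edgeR). kif11, the kinesin motor that pushes spindle poles apart, had 3113, 2967 and 3229 normalized counts at 6 h and 5881, 5796 and 5982 at 0 h (log2 fold change −0.92, edgeR adjusted p = 1.9e-10). ccnb1, the cyclin that drives entry into mitosis, had 2287, 2146 and 2418 at 6 h and 4411, 4558 and 4655 at 0 h (−0.99, edgeR adjusted p = 5.3e-10). In both genes the 3 libraries of each time lay close together and the groups were well apart.

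The decreases that follow are of genes chosen by their adjusted p among the moderate genes lower at 6 h. Their shared direction was set by this choice. The centromere motor cenpe changed by −0.80, the spindle assembly factor tpx2 by −0.82 and the kinetochore subunit ndc80 by −0.74. aurka, a kinase of the spindle poles, had 784.6, 748.8 and 761.2 normalized counts at 6 h and 1418, 1525 and 1569 at 0 h, a log2 fold change of −0.97. Genes of the last step of division were among them, with −0.68 for anln, a scaffold of the contractile ring, −0.71 for kif20a and −0.86 for prc1b, both of the central spindle. The microtubule motors kif2c and kifc1 changed by −0.85 and −0.81, the spindle protein gene ckap2l by −0.72 and the cyclin gene ccnf by −0.89 (edgeR adjusted p between 8.3e-10 and 1e-08 for all of these). None of these genes had an overlap between the 6 h and 0 h libraries, which was a condition for naming them. The mitosis gene that rose was fzr1b, whose mammalian counterpart activates the anaphase-promoting complex after mitosis and in G1, with 787.1, 757.2 and 770.8 normalized counts at 6 h and 536.2, 488.6 and 506.8 at 0 h (0.59, edgeR adjusted p = 2e-06).

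Factors of mitotic exit and nuclear import outside this list reached a 2-fold change. ube2c, the ubiquitin-conjugating enzyme that works with the anaphase-promoting complex, is a symbol carried by 2 gene identifiers in the table. The identifier ENSDARG00000114670 had 2405, 2413 and 2469 normalized counts at 6 h and 4981, 4910 and 5137 at 0 h (log2 fold change −1.04, standard error 0.06, edgeR adjusted p = 1.8e-09). kpna2, an importin that carries proteins into the nucleus, had 3171, 3057 and 3210 at 6 h and 6296, 6640 and 7123 at 0 h (−1.09, standard error 0.06, edgeR adjusted p = 6.2e-10). The other ube2c identifier did not pass, with 757.8, 727.8 and 720.7 at 6 h and 774.6, 662.2 and 741.9 at 0 h (0.02, edgeR adjusted p = 0.88). The helicase gene pif1 and the centrosome gene cep72 also fell by at least 2-fold, with log2 fold changes of −1.09 and −1.12, from low levels of 162.8 to 185.9 and 128.2 to 141.8 normalized counts at 0 h.

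DNA replication genes fell in nearly as large a share, but by less. Of 45 tested, 37 fell (82.2%, against 14.9% of all genes) and 0 rose (against 14.1%). The median log2 fold change was −0.35, and 6 of the 37 were moderate. With edgeR's test against a fold of 1.2, 8 of the 45 passed. top2a, the topoisomerase that untangles replicated DNA, had 5880, 5685 and 5967 normalized counts at 6 h and 9186, 9454 and 9362 at 0 h (−0.68, standard error 0.04, edgeR adjusted p = 2.9e-09). mcm5, a subunit of the replicative helicase, had 2702, 2644 and 2683 at 6 h and 4139, 4260 and 4232 at 0 h (−0.65, standard error 0.05, edgeR adjusted p = 4.5e-08). Both genes were separated without overlap, and mcm3 and mcm6 of the same helicase changed by −0.57 and −0.48.

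**Figure D2:**
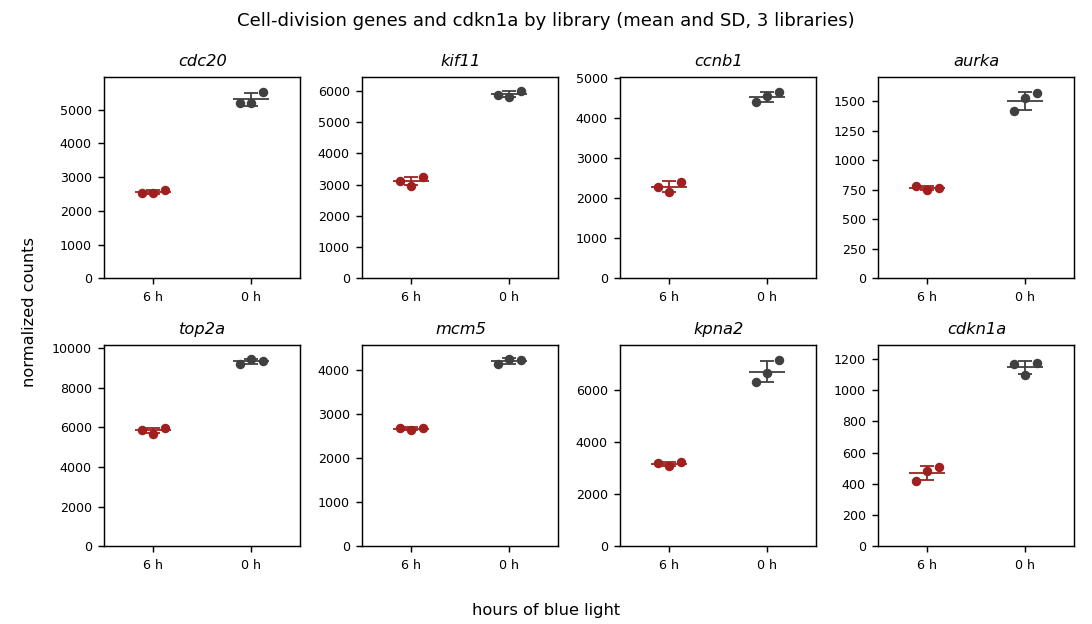
Normalized counts of 7 cell-division genes and of cdkn1a in the 3 libraries at 6 h (left, red) and the 3 at 0 h (right, dark grey), with mean and SD and axes from 0. In all 8 genes every 6 h library lies below every 0 h library, and cdc20, for example, has 2519 to 2610 at 6 h and 5192 to 5533 at 0 h.

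Genes on a list of cyclins, their inhibitors, E2F factors and related regulators fell more often than they rose. Of 35 tested, 3 rose (8.57%, against 14.1% of all genes) and 11 fell (31.4%, against 14.9%). The median log2 fold change was −0.20, and 6 of those that fell passed against a fold of 1.2. cdkn1a, the inhibitor p21 that holds cells before DNA replication and a known target of p53, showed the largest decrease. It had 420.7, 481.4 and 505.7 normalized counts at 6 h and 1168, 1097 and 1171 at 0 h (−1.29, standard error 0.07, edgeR adjusted p = 1.2e-09). Inhibitor genes of the related p27 group rose instead, with 0.52 for cdkn1bb and 0.57 for cdkn1d (edgeR adjusted p = 1e-06 and 0.0026). rbl2, a relative of the retinoblastoma protein found in resting cells, had 418.2, 426.8 and 402.4 normalized counts at 6 h and 244.1, 203.1 and 194.3 at 0 h (0.95, edgeR adjusted p = 2.9e-06). cdc25b, a phosphatase that activates cyclin-dependent kinases, changed by −0.50, e2f3 by −0.43 and cdk2 by −0.36, all past the test.

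The targets of p53 did not follow cdkn1a as a list. Of 31 tested, 12 rose (38.7%, against 14.1% of all genes) and 5 fell (16.1%, against 14.9%). The median log2 fold change was 0.27, and 7 of the 12 passed against a fold of 1.2. Besides xpc of DNA repair, the members with the smallest adjusted p were rrm2b, a ribonucleotide reductase subunit for repair (2.05), sesn2, a sensor of leucine and stress (0.88), and gadd45aa, a gene of growth arrest (0.65), all higher. Lower were cdkn1a, btg2 (−0.73), a gene against proliferation, baxa (−0.44 under 1 of the 2 identifiers with this symbol), which promotes cell death, and perp (−0.20). This list shares genes with lists of DNA repair and of the amino acid response.

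Tubulins form the spindle of dividing cells and the core of cilia. Of 49 genes for cilia and microtubules, 13 fell (26.5%, against 14.9% of all genes) and 4 rose (8.16%, against 14.1%). The median log2 fold change was −0.01, and the 4 with the smallest adjusted p among those that fell were all tubulins. tubb4b, a beta-tubulin, had 40445, 40658 and 42470 normalized counts at 6 h and 58781, 59512 and 65248 at 0 h (−0.57, standard error 0.06, edgeR adjusted p = 2.3e-06). Over all genes tested, 31.4% of those with 10000 or more normalized counts were lower, and the part of abundance here was not tested. The alpha-tubulin genes tuba1a, tuba8l4 and tuba8l changed by −0.77, −0.66 and −0.55. Tubulin genes are alike in sequence, and since the counting program is not known, reads may have been shared between them. ift140, which serves transport in cilia, rose by 1.25 (edgeR adjusted p = 2.6e-05), and against a fold of 1.2 the count that fell was 8 of 49.

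Among 68 genes for histones and chromatin modifiers, 18 fell (26.5%, against 14.9% of all genes) and 14 rose (20.6%, against 14.1%). The median was −0.09. Against a fold of 1.2, 6 fell and 8 rose. Of the 68, 31 averaged 1000 or more normalized counts. Over all genes tested, 31.9% of those with 1000 to 10000 were lower, and the part of abundance was not tested. Those that fell were led by abundant structural proteins that bind DNA or nucleosomes. hmga1a had 32187, 32992 and 34628 normalized counts at 6 h and 53582, 58073 and 61539 at 0 h (−0.80, standard error 0.06, edgeR adjusted p = 3.9e-08). The linker histone gene h1fx changed by −0.64, hmgn2 by −0.61 and hmgb1b by −0.51. Those that rose were led by enzymes. kdm1a, a histone demethylase, had 7067, 6658 and 6771 normalized counts at 6 h and 3778, 3894 and 4186 at 0 h (0.79, standard error 0.05, edgeR adjusted p = 2.4e-09). The methyltransferase gene setd7 rose by 0.90, the deacetylase gene sirt2 by 0.46 and the remodeller gene chd2 by 0.36.

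Genes for making ribosomes fell broadly and by small amounts. Of 74 ribosome biogenesis genes tested, 52 fell and 0 rose, with a median log2 fold change of −0.34, and 8 were moderate. Against a fold of 1.2, 15 passed. ncl, the nucleolar protein nucleolin, had 17847, 17707 and 18435 normalized counts at 6 h and 23437, 25125 and 27250 at 0 h (−0.49, standard error 0.05, edgeR adjusted p = 3.8e-06). The core proteins of the small nucleolar particles that modify ribosomal RNA, nop58 and nop56, changed by −0.49 and −0.50, and tsr2, which accompanies a ribosomal protein in yeast, by −0.58. Of the 74 genes, 47 averaged 1000 or more normalized counts. Over all genes tested, 31.9% of those with 1000 to 10000 normalized counts and 9.91% of those under 1000 were lower at 6 h, and the part of abundance in this count was not tested.

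Few genes for the ribosomal proteins themselves passed the test. Of 84 tested, 2 fell (2.38%, against 14.9% of all genes) and 1 rose (1.19%, against 14.1%). The log2 fold change was below 0 in 78 of the 84, with a median of −0.14. In 23 of the 84 every 6 h library lay below every 0 h library, against 21.7% of all genes tested. Of the 84, 77 averaged 1000 or more normalized counts. Over all genes the median was −0.05 with 1000 to 10000 and −0.12 with 10000 or more, and the part of abundance here was not tested. Those that fell were rpl7l1 and rpl22l1 (−0.42 and −0.38), relatives of ribosomal proteins rather than standard subunits. rpl37 had a log2 fold change of 0.77 under 1 of the 2 gene identifiers that carry this symbol, so that its count is uncertain.

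Other steps of gene expression showed the same small decreases. Of 82 splicing factor genes, 43 fell (52.4%, against 14.9% of all genes) and 9 rose (11%, against 14.1%). The median was −0.22, and 9 fell against a fold of 1.2. The RNA-binding protein genes hnrnpub, hnrnpm and hnrnpabb changed by −0.37, −0.40 and −0.45, and rbm39a and sf3b1 rose by 0.38 and 0.28. The 9 that rose were 5 without 0 h replicate 2 and 4 without any 1 of the 6 h libraries, and 1 against a fold of 1.2. Of 65 translation factor genes, 28 fell (43.1%) and 3 rose (4.62%), with a median of −0.15. Those that fell were led by eif3ja (−0.50) and eif2s1a (−0.36), subunits of initiation factors. Without 6 h replicate 1 or 6 h replicate 2, 18 of these 28 passed, and against a fold of 1.2 the count was 1. Of the 82 splicing and 65 translation factor genes, 61 and 50 averaged 1000 or more normalized counts. Over all genes tested, 31.9% of those with 1000 to 10000 were lower, and the part of abundance here was not tested.

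Proteasome genes, which encode the particle that degrades ubiquitin-tagged proteins, fell as a group by small steps. Of 52 tested, 29 fell (55.8%, against 14.9% of all genes) and 3 rose (5.77%, against 14.1%). The median was −0.22, and none of the 29 was moderate. The count was 19 when either 0 h replicate 3 or 6 h replicate 2 was removed, and 1 against a fold of 1.2. Of the 52, 41 averaged 1000 or more normalized counts. Over all genes tested, 31.9% of those with 1000 to 10000 were lower, and the part of abundance was not tested. psmd11b, a lid subunit, had 1787, 1768 and 1776 normalized counts at 6 h and 2209, 2374 and 2514 at 0 h (−0.41, standard error 0.05, edgeR adjusted p = 1.3e-05). psmd8, psmd4b and psma6a changed by −0.38, −0.25 and −0.34. The strongest change in this list had the other sign: psme4a, an activator that opens the proteasome without ubiquitin, had 130.5, 155.2 and 144.8 normalized counts at 6 h and 65.96, 39.39 and 39.39 at 0 h (1.55, standard error 0.19, edgeR adjusted p = 1.1e-05). Its copy psme4b rose by 0.28 and the assembly factor psmd9 by 0.36.

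Ubiquitin enzymes were split. Of 79 tested, 22 fell (27.8%, against 14.9% of all genes) and 10 rose (12.7%, against 14.1%). The median was −0.03, and 2 of the 22 and 4 of the 10 passed against a fold of 1.2. Of the 79, 50 averaged 1000 or more normalized counts. Over all genes tested, 31.9% of those with 1000 to 10000 were lower, and the part of abundance was not tested. The increases included some of the largest of all genes. lonrf1, a ubiquitin ligase with a Lon domain, had 5821, 5695 and 5440 normalized counts at 6 h and 429.7, 473.9 and 464.8 at 0 h (3.63, standard error 0.07, edgeR adjusted p = 5e-16). Its relative lonrf1l had 4777, 5336 and 5134 at 6 h and 417.4, 326.2 and 371.6 at 0 h (3.76, edgeR adjusted p = 1.1e-15). nedd4a, a ligase for membrane proteins, had 1933, 1821 and 1792 at 6 h and 699.2, 662.2 and 601.4 at 0 h (1.5, edgeR adjusted p = 5.9e-11). All 3 were separated from 0 h without overlap. lonrf1 and lonrf1l are related in sequence, and how reads that match both were counted is not known. Besides ube2c, ube2s of the same complex (−0.68), ube2a (−0.37) and the deubiquitinase gene uchl1 (−0.36) fell.

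Chaperone genes fell more often than they rose. Of 45 in the cytosol, 16 fell (35.6%, against 14.9% of all genes) and 4 rose (8.89%, against 14.1%). The median was −0.16, and 1 fell against a fold of 1.2. Of the 45, 24 averaged 1000 or more normalized counts, and over all genes tested 31.9% of those with 1000 to 10000 were lower. The decreases with the smallest adjusted p, in dnaja2, ptges3b, ptges3a and hspa4a, lay between −0.33 and −0.44. DNAJA4 had 660.8, 603 and 630.3 normalized counts at 6 h and 323.2, 333.6 and 333.5 at 0 h (0.94, edgeR adjusted p = 1.9e-08). hsp70l, the heat-inducible chaperone, had only 64.41, 56.63 and 47.91 at 6 h and 33.92, 33.23 and 43.33 at 0 h (0.62, edgeR adjusted p = 0.038), and its call ended under DESeq2 and in 4 of the 6 fits that left out 1 library. In the endoplasmic reticulum, 15 of 50 genes for folding and the unfolded protein response fell (30%) and 5 rose (10%), with a median of −0.05. None of those that fell passed against a fold of 1.2, and 29 of the 50 averaged 1000 or more normalized counts. The sensor gene atf6 had 3219, 3128 and 3052 at 6 h and 1911, 1966 and 1973 at 0 h (0.68, edgeR adjusted p = 1.2e-08), and xbp1, another factor of this response, rose by 0.29. herpud1, of the degradation of misfolded proteins, and the co-chaperone gene dnajc3b rose by 0.42 and 0.40, and the chaperone genes hsp90b1 and pdia4 changed by −0.19 and −0.27.

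**Figure D3:**
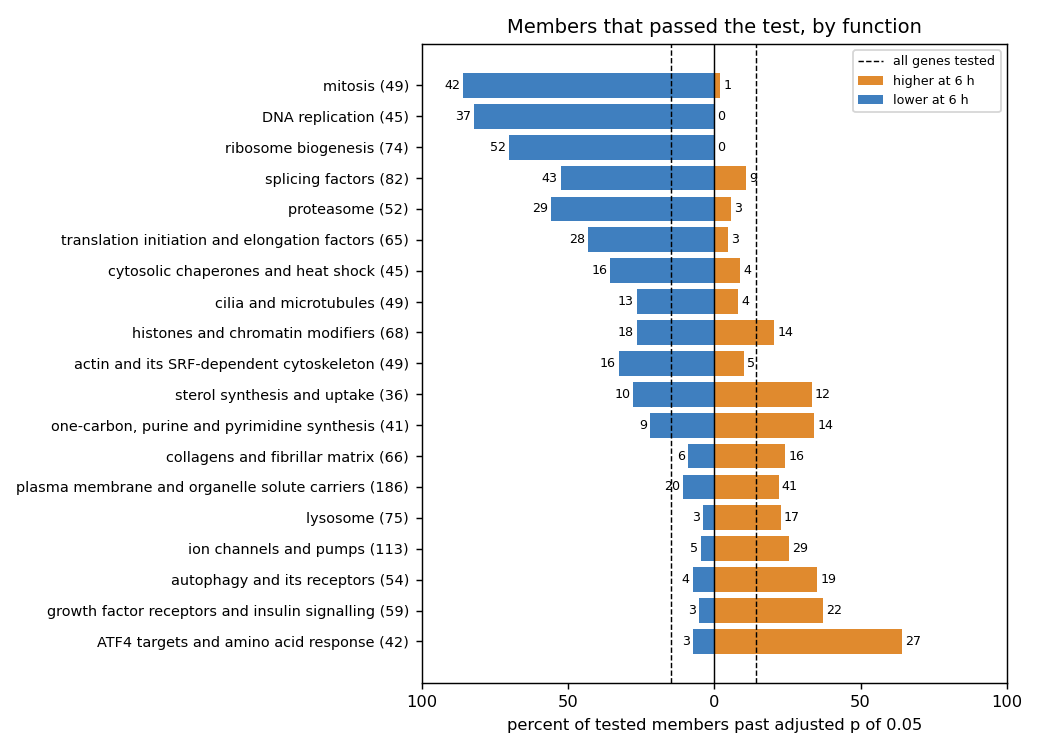
Percent of the tested members of 19 function lists that passed the edgeR test at an adjusted p of 0.05, higher at 6 h to the right and lower at 6 h to the left, with the number of genes beside each bar and the number tested in brackets. Dashed lines mark 14.1% and 14.9%, the shares of all genes tested; mitosis (42 of 49 lower) and DNA replication (37 of 45 lower) stand at one end, and the amino acid response (27 of 42 higher) at the other.

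In the opposite direction, genes of the amino acid response rose. These are targets of the transcription factor ATF4, which cells use when amino acids are short or proteins misfold, and they include transporters and synthetic enzymes. Of 42 tested, 27 rose (64.3%, against 14.1% of all genes) and 3 fell (7.14%, against 14.9%). The median was 0.35, and 13 of the 27 were moderate. Against a fold of 1.2, 15 passed. Of the 42, 28 averaged 1000 or more normalized counts, and over all genes tested 20% of those with 1000 to 10000 were higher. A separate list of aminoacyl-tRNA synthetase genes did not share this direction. Of 19 tested, 2 rose (10.5%) and 5 fell (26.3%), with a median of −0.06, and 17 of the 19 averaged 1000 or more normalized counts. The mRNA of atf4a itself, looked up after these values were seen, did not pass, with 27773, 28003 and 28523 normalized counts at 6 h and 28173, 27532 and 32103 at 0 h (−0.06, edgeR adjusted p = 0.55).

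slc7a3a, a transporter of arginine and lysine, lies on chromosome 21 at 30502002 to 30537411 (GRCz11). It had 5355, 5104 and 5001 normalized counts at 6 h and 2814, 2680 and 2505 at 0 h (0.95, standard error 0.05, edgeR adjusted p = 2.7e-10), the smallest adjusted p among all moderate genes that were higher at 6 h and on no excluded list. slc38a2, a transporter of small neutral amino acids, had 4434, 4221 and 4358 at 6 h and 3007, 2817 and 2845 at 0 h (0.58, edgeR adjusted p = 6.9e-08). Both transporters were higher in every 6 h library than in any 0 h library. cth, which makes cysteine and hydrogen sulfide, had 3178, 3084 and 2894 at 6 h and 1805, 1859 and 1900 at 0 h (0.72, edgeR adjusted p = 7.6e-09). gpt2, an alanine transaminase, had 2247, 2189 and 2204 at 6 h and 1400, 1466 and 1314 at 0 h (0.67, edgeR adjusted p = 7.3e-08), and sesn2, named above, had 653.3, 594.6 and 595.1 at 6 h and 322.3, 339.7 and 342.7 at 0 h. The groups did not overlap in these genes either, which like the transporters were chosen on the same counts. Over all genes tested, 21.6% lay wholly higher at 6 h. The 3 members that fell were psph of serine synthesis (−0.36), pycr1b of proline synthesis (−0.16, a call that ended in 5 of the 6 fits without 1 library) and eif4ebp2, a brake on translation (−0.20).

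Sulfur amino acid genes and one-carbon genes gave related values. Of 13 genes for hydrogen sulfide, cysteine and taurine, 5 rose (38.5%, against 14.1% of all genes) and 3 fell (23.1%, against 14.9%). Besides cth, sqor, which oxidises sulfide, rose by 0.76, gnmt, which uses S-adenosylmethionine, by 0.47 and cbsb, which makes cystathionine, by 0.47. Those that fell were adoa and adob, dioxygenase genes, and TST, with −0.26, −0.30 and −0.21. The call of adob ended without 0 h replicate 3 and that of TST in 4 of the 6 fits without 1 library. Of 41 one-carbon, purine and pyrimidine genes, 14 rose (34.1%) and 9 fell (22%), with a median of 0.02. Against a fold of 1.2, 9 and 3 passed. The enzymes of S-adenosylmethionine synthesis, mat2ab and mat2aa, rose by 0.95 and 0.55. dhodh of pyrimidine synthesis had 3598, 3561 and 3615 normalized counts at 6 h and 1794, 2047 and 2022 at 0 h (0.88, edgeR adjusted p = 1.5e-08). The genes that fell were led by enzymes of nucleotide synthesis, impdh2 (−0.58), tyms (−0.40), pfas (−0.41) and cad (−0.37). dhodh and cad, which act in the same pathway, thus had opposite signs. arg2, an arginase, rose by 0.89 (edgeR adjusted p = 1.6e-08), and odc1 and sms of polyamine synthesis changed by −0.37 and −0.36. The products of gpt2, sqor, dhodh and arg2 are known to work in mitochondria, although these genes are on none of the lists removed.

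Autophagy genes rose in part. Of 54 tested, 19 rose (35.2%, against 14.1% of all genes) and 4 fell (7.41%, against 14.9%). The median was 0.17, and 8 of the 19 were moderate. Against a fold of 1.2, 9 passed. rb1cc1, a scaffold of the kinase complex that starts autophagy, had 2222, 2198 and 2159 normalized counts at 6 h and 1489, 1521 and 1375 at 0 h (0.59, standard error 0.06, edgeR adjusted p = 1.8e-06). atg9a, which supplies membrane, rose by 0.50, ATG14 of the lipid kinase complex by 0.46 and map1lc3b, which coats the autophagosome, by 0.38. tp53inp2, a cofactor of autophagy in mammals, was lower, with 1012, 961.7 and 1090 at 6 h and 1575, 1566 and 1850 at 0 h (−0.70, edgeR adjusted p = 1.5e-06).

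Of 75 lysosome genes, 17 rose (22.7%, against 14.1% of all genes) and 3 fell (4%, against 14.9%). The median was 0.07, and 9 rose against a fold of 1.2. Of the 75, 40 averaged 1000 or more normalized counts, and over all genes tested 20% of those with 1000 to 10000 were higher. The protease gene ctsf had 2338, 2194 and 2190 normalized counts at 6 h and 1303, 1308 and 1263 at 0 h (0.80, standard error 0.05, edgeR adjusted p = 3.3e-09). asah1a, a ceramidase, had 1628, 1602 and 1616 at 6 h and 801, 902.2 and 881 at 0 h (0.91, standard error 0.06, edgeR adjusted p = 4.5e-09). ctsc, another protease, rose by 0.44 and atp6v0a1a of the proton pump by 0.49. The 3 that fell were the proton pump genes atp6v0ca and atp6v0cb (−0.20 each) and npc1 of cholesterol export (−0.13). The call of atp6v0ca was lost when 0 h replicate 3 or 6 h replicate 2 was removed, and those of atp6v0cb and npc1 in 4 of the 6 fits that left out 1 library and when scaled by library totals.

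**Figure D4:**
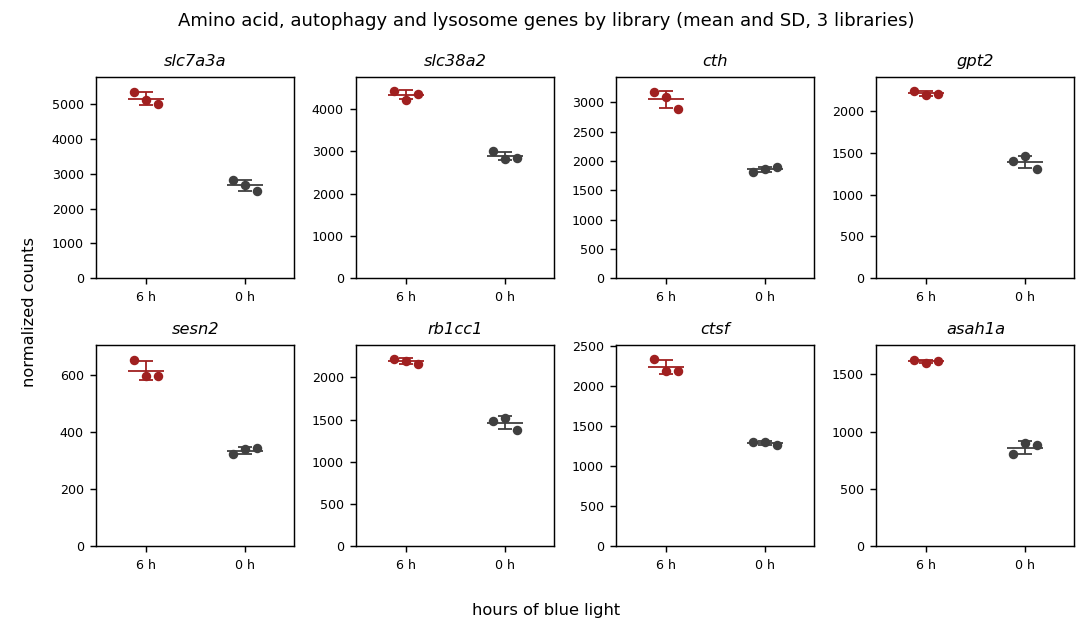
Normalized counts of 5 amino acid response genes (slc7a3a, slc38a2, cth, gpt2, sesn2), of rb1cc1 of autophagy and of ctsf and asah1a of the lysosome in the 3 libraries at 6 h (left, red) and the 3 at 0 h (right, dark grey), with mean and SD and axes from 0. Every 6 h library lies above every 0 h library in all 8 genes, as for slc7a3a with 5001 to 5355 at 6 h and 2505 to 2814 at 0 h.

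Lipid genes changed in both directions. Of 41 peroxisome genes, 12 rose (29.3%, against 14.1% of all genes) and 8 fell (19.5%, against 14.9%), with a median of −0.03. The 8 were 5, 4, 4 and 3 when 0 h replicate 2, 0 h replicate 3, 6 h replicate 1 or 6 h replicate 2 was removed, and 2 when scaled by library totals. phyh, which breaks down branched fatty acids, had 867.4, 822.2 and 881.5 normalized counts at 6 h and 407.1, 400 and 382.1 at 0 h (1.11, edgeR adjusted p = 1.4e-09), and ehhadh rose by 0.46. In contrast, agps, an enzyme of ether lipid synthesis in the same organelle, changed by −0.45.

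Among 43 genes for fatty acids and triglycerides, 13 rose (30.2%, against 14.1% of all genes) and 5 fell (11.6%, against 14.9%). The median was 0.06, and 6 rose against a fold of 1.2. slc27a6, which takes up long-chain fatty acids, had 1844, 1675 and 1609 normalized counts at 6 h and 273.3, 232.6 and 256 at 0 h (2.75, edgeR adjusted p = 2.9e-13). The lipase gene pnpla2 rose by 0.59 and gpat4 of triglyceride synthesis by 0.56. The elongase genes elovl1b and elovl2 changed by −0.24 and −0.21, and elovl2 did not pass when scaled by library totals. In sterol synthesis and uptake, 12 of 36 rose (33.3%) and 10 fell (27.8%), with a median of −0.05. Against a fold of 1.2, 6 and 0 passed. The receptor gene ldlra rose by 0.47, and mylipb, whose product degrades this receptor in mammals, rose by 1.33, with 199.1, 205.6 and 214 at 6 h and 79.15, 66.47 and 101.1 at 0 h. Of the enzyme genes of the pathway, hmgcs1, idi1 and fdps changed by −0.26, −0.31 and −0.39, while ebp and msmo1 rose by 0.46 each.

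Transporters and channels rose more often than they fell. Of 186 solute carrier genes, 41 rose (22%, against 14.1% of all genes) and 20 fell (10.8%, against 14.9%). The median was 0.09. Against a fold of 1.2, 18 rose and 2 fell, and the 20 were 13, 13 and 11 when 0 h replicate 2, 0 h replicate 3 or 6 h replicate 2 was removed. Besides slc27a6 and slc7a3a, slc45a1, a sugar transporter, had 169, 175.1 and 161.8 normalized counts at 6 h and 38.63, 25.85 and 28.89 at 0 h (2.42, edgeR adjusted p = 3.3e-08), and SLC35G1 rose by 2.32. The zinc transporter genes slc39a7 and slc39a6 changed by −0.42 and −0.31. Of 113 genes for ion channels and pumps, 29 rose (25.7%) and 5 fell (4.42%), with a median of 0.17. Against a fold of 1.2, 13 rose. trpm7, a channel for magnesium and zinc that is also a kinase, had 3068, 3050 and 2958 at 6 h and 1713, 1596 and 1645 at 0 h (0.87, standard error 0.05, edgeR adjusted p = 7.4e-10). lrrc8da, a subunit of volume-regulated anion channels, had 1743, 1642 and 1661 at 6 h and 563.5, 563.7 and 611.9 at 0 h (1.54, edgeR adjusted p = 2e-09), and neither gene had an overlap between the groups.

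Receptors and signalling factors for growth rose slightly. Of 59 genes for growth factor receptors and insulin signalling, 22 rose (37.3%, against 14.1% of all genes) and 3 fell (5.08%, against 14.9%). The median was 0.18, with 3 moderate. The 22 were 14 when either 0 h replicate 3 or 6 h replicate 1 was removed, and 3 against a fold of 1.2. This median lies within the range of the trend with gene length given above, whose part here was not tested. The collagen receptor gene ddr2a rose by 0.39, rictorb of an mTOR complex by 0.43 and foxo4 by 0.30, while the growth factor gene hbegfa changed by −0.45. kdr, a receptor of vascular endothelial growth factor, had 2698, 2534 and 2308 normalized counts at 6 h and 1750, 1572 and 1335 at 0 h (0.69, edgeR adjusted p = 0.00013). Of 18 endothelium markers, 2 exceeded 1 TPM at 6 h and 2 at 0 h. Their summed level, which includes kdr, was 35.8 to 42.6 TPM at 6 h and 20.1 to 27.5 TPM at 0 h, and its part in the result was not tested.

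Immediate early and feedback factors, which cells switch on soon after a stimulus, changed in both directions. Of 33 immediate early genes, 10 fell (30.3%) and 6 rose (18.2%), with a median of −0.02. Against a fold of 1.2, 6 of the 10 passed. fosl1b, an AP-1 subunit, had 1742, 1738 and 1759 normalized counts at 6 h and 2519, 2659 and 2725 at 0 h (−0.59, edgeR adjusted p = 2e-07). btg2 changed by −0.73, junba by −0.46 and ier2a by −0.43. ctgfb, a matrix factor, had 3242, 3228 and 2976 at 6 h and 1862, 1703 and 1534 at 0 h (0.89, edgeR adjusted p = 3.5e-08), and the stress factor gene atf3 rose by 0.65. Of 41 MAP kinase feedback genes, 8 fell (19.5%, against 14.9% of all genes) and 4 rose (9.76%, against 14.1%). The 8 were 5 without 6 h replicate 1, and 2 against a fold of 1.2. The phosphatase genes dusp5, dusp2 and dusp1 changed by −0.98, −0.57 and −0.32, while dusp22a of the same family rose by 0.62.

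In the Notch list, 3 of 25 genes rose and 3 fell (12% each, below the shares of all genes, with a median of 0.08), and those that fell were all factors of the hairy and enhancer of split family. hes6 had 79.46, 89.14 and 75.59 normalized counts at 6 h and 181.9, 179.7 and 187.8 at 0 h (−1.17, standard error 0.14, edgeR adjusted p = 9e-06). her6 had 52.7, 53.48 and 37.26 at 6 h and 148.9, 73.85 and 74.84 at 0 h (−1.06), and her8a had 15.06, 13.63 and 9.582 at 6 h and 26.38, 33.23 and 31.51 at 0 h (−1.23). In her6, 0 h replicate 1 lay far above the other 0 h libraries, and in all 3 genes every 0 h library lay above every 6 h library. Of 51 genes for TGF-beta and BMP signalling, 7 rose and 6 fell (13.7% and 11.8%, against 14.1% and 14.9% of all genes, with a median of 0.01), and the inhibitor genes id1 and id2a, known targets of BMP, changed by −0.77 and −0.51.

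Repair of breaks and crosslinks in DNA gave 7 higher and 9 lower genes of 48 (median −0.05). These were 14.6% and 18.8%, near the 14.1% and 14.9% of all genes, and 4 of the lower ones passed against a fold of 1.2. fanci of the crosslink pathway had 1599, 1486 and 1428 normalized counts at 6 h and 900.9, 955.1 and 967.7 at 0 h (0.68, edgeR adjusted p = 3.4e-07), with no overlap between the groups. alkbh3, which removes alkyl groups, rose by 0.68 and rad50 by 0.45. mre11a, whose product binds that of rad50, changed by −0.44, the mismatch gene msh6 by −0.45 and xrcc4 of end joining by −0.49. rad50 and mre11a, of the same complex, thus differed in sign.

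Of 49 actin and SRF-dependent genes, 16 fell (32.7%, against 14.9% of all genes) and 5 rose (10.2%, against 14.1%). The median was −0.09, and 3 fell against a fold of 1.2. Of the 49, 27 averaged 1000 or more normalized counts. Over all genes tested, 31.9% of those with 1000 to 10000 were lower, and the part of abundance was not tested. actb1, a cytoplasmic actin, had 50821, 50274 and 52049 normalized counts at 6 h and 65780, 66647 and 71130 at 0 h (−0.41, edgeR adjusted p = 3.3e-05). acta1a, a skeletal muscle actin, had 786.3, 863.1 and 886.8 at 6 h and 1544, 1585 and 1808 at 0 h (−0.96, edgeR adjusted p = 9.9e-08). Of 28 muscle markers, 5 exceeded 1 TPM at both times, with a summed level of 43.3 to 51.1 TPM at 6 h and 72.1 to 74.9 TPM at 0 h that includes acta1a, and its part in the result was not tested. The actin-severing factor cfl1 changed by −0.38, while the myosin gene myh9a rose by 0.68.

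Of 66 genes for collagens and fibrillar matrix, 16 rose (24.2%, against 14.1% of all genes) and 6 fell (9.09%, against 14.9%). The median was 0.12, and 9 rose against a fold of 1.2. Of the 66, 33 averaged 1000 or more normalized counts, and over all genes tested 20% of those with 1000 to 10000 were higher. loxl3a and loxl3b, which crosslink collagen, had 235.9, 173 and 174.6 and 801.3, 884.1 and 763.3 normalized counts at 6 h, against 67.85, 65.24 and 68.28 and 458, 482.5 and 428 at 0 h (1.54 and 0.84). lum, a proteoglycan on collagen fibrils, had 2629, 2811 and 2643 at 6 h and 1859, 1830 and 1635 at 0 h (0.60, edgeR adjusted p = 7.5e-07). serpinh1b, the collagen chaperone, rose by 0.42, and the fibronectin gene fn1a changed by −0.32. In these 4 genes that rose, the groups did not overlap.

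Of 47 glutathione and Nrf2 genes, 21 rose (44.7%, against 14.1% of all genes) and 1 fell (median 0.24). Of 46 genes for carotenoids, retinoids and vitamins, 14 rose (30.4%) and 1 fell (median 0.24), and 9 rose when only genes with a mean of at least 100 normalized counts were kept. rbp4, which carries retinol in blood, rose by 0.77. Of 17 liver and yolk markers, 1 exceeded 1 TPM at both times, with a summed level of 171 to 180 TPM at 6 h and 88.4 to 109 TPM at 0 h that includes rbp4, and its part in the result was not tested. In glycolysis and hypoxia 13 of 50 rose (26%) and 3 fell (6%), led by pfkfb3 (1.32), which makes an activator of glycolysis. Against a fold of 1.2, 5 rose. In the innate immune list 10 of 73 rose and 7 fell, which at 13.7% and 9.59% is below the 14.1% and 14.9% of all genes. The 10 were 6 without 0 h replicate 3 and 3 against a fold of 1.2, and stat6 and irf3, which switch on cytokine and interferon genes, rose by 0.74 and 0.65. Of 44 nuclear receptors and coregulators 10 rose (22.7%) and 2 fell (4.55%), led by esrra (0.80), a receptor known for energy metabolism. The 10 were 5 without 0 h replicate 3. They were also 5 without 6 h replicate 1, 6 without 6 h replicate 2 and 3 against a fold of 1.2. In Golgi and secretory transport 15 of 50 fell (30%) and 7 rose (14%), and none of the 15 passed against a fold of 1.2. Of these 50 genes, 32 averaged 1000 or more normalized counts, and 31.9% of all genes with 1000 to 10000 were lower. The cargo receptor genes tmed2, tmed9 and tmed7 changed by −0.32, −0.24 and −0.30. Wnt genes gave 4 higher and 4 lower of 36 and integrins and focal adhesion 3 and 4 of 31, all below the shares of all genes. YAP targets gave 6 higher and 3 lower of 26 (23.1% and 11.5%, against 14.1% and 14.9% of all genes). Among them ctgfb rose and cyr61, another known YAP target, changed by −0.29.

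Several of the moderate genes with the smallest adjusted p were not described above. ephx2, of the xenobiotic list, hydrolyses lipid epoxides and had 2317, 2275 and 2228 normalized counts at 6 h and 1275, 1211 and 1065 at 0 h (0.94, edgeR adjusted p = 3e-09). zak, a kinase that senses stalled ribosomes in mammals, is a symbol of 2 gene identifiers. The one with more counts, ENSDARG00000044615, had 6018, 5789 and 5663 at 6 h and 3876, 3688 and 3729 at 0 h (0.63, edgeR adjusted p = 8e-09), and the other changed by 0.72 (edgeR adjusted p = 0.00058). The products of uqcc1, oxnad1, sfxn4, cmc2 and aldh1l2 are known from mitochondria, although these genes are on none of the lists removed, and rose by 0.80, 0.89, 0.95, 0.96 and 0.76. znf395b, which encodes a zinc finger protein, had 722.7, 755.1 and 791 at 6 h and 1372, 1403 and 1444 at 0 h (−0.90, edgeR adjusted p = 8.5e-09). No overlap between the groups was a condition for naming these genes.

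Among the largest increases on no excluded list, many started from very low levels. frs3, an adaptor of growth factor receptors, had 63.57, 65.02 and 50.04 normalized counts at 6 h and 0.9423, 3.693 and 0 at 0 h (5.18, standard error 0.45, edgeR adjusted p = 2.6e-07). crtac1a, a secreted cartilage protein, had 5258, 5072 and 4995 at 6 h and 309.1, 331.1 and 270.5 at 0 h (4.07, standard error 0.06, edgeR adjusted p = 5.6e-17). abhd4, a lipid hydrolase, had 2990, 2905 and 2831 at 6 h and 369.4, 334.8 and 434.6 at 0 h (2.94), and wdr76, which in mammals takes part in the DNA damage response, had 1890, 1680 and 1708 at 6 h and 285.5, 221.6 and 248.2 at 0 h (2.80). The first of these genes has a fold change with a wide error, since its 0 h counts are few, and the other 3 have narrow ones. jph3, rpp25a and bin2a, with 26.22 to 57.49 normalized counts at 6 h and 1.231 to 9.423 at 0 h, rose by 3.45, 3.20 and 2.96, and the repair genes xpc and ddb2 by 3.42 and 3.33. crfb16, of the cytokine receptor family, had 13.38, 10.49 and 13.84 at 6 h and 0, 1.231 and 1.313 at 0 h, too few for a fold.

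The levels over all 4 times show when these genes left their 0 h level. cdc20 had 5313 ± 191 normalized counts at 0 h, 5011 at 1 h, 4162 ± 173 at 3 h and 2557 ± 47.7 at 6 h (SD, n = 3), and mcm5 had 4210 ± 63.5 at 0 h, 3999 at 1 h, 4032 ± 266 at 3 h and 2676 ± 29.6 at 6 h. slc7a3a had 2666 ± 155, 2988, 3535 ± 59.8 and 5153 ± 182 at the same times, and cth had 1855 ± 47.4, 2098, 2990 ± 107 and 3052 ± 145. Most of the decrease in mcm5 thus fell between 3 h and 6 h, while cth had reached its level by 3 h.

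**Figure D5:**
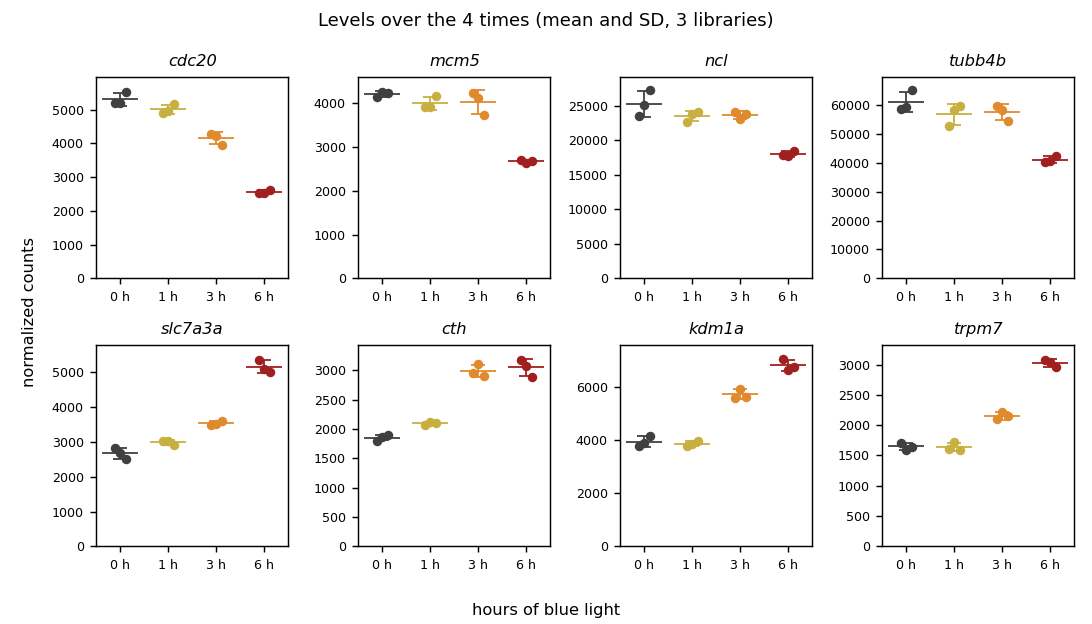
Normalized counts at 0 h, 1 h, 3 h and 6 h of blue light for 4 genes that were lower at 6 h (cdc20, mcm5, ncl, tubb4b) and 4 that were higher (slc7a3a, cth, kdm1a, trpm7), 3 libraries per time with mean and SD and axes from 0. mcm5, for example, has a mean of 4032 normalized counts at 3 h and 2676 at 6 h, and cth is at 2990 by 3 h and at 3052 at 6 h.

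In the same fit, 3682 genes (20.4%) were higher at 6 h than at 3 h and 3623 (20.1%) were lower. This contrast shares the 6 h libraries with the one above. The scaling weighed more here, since the TMM factors differed between these times. Scaling by library totals raised the median log2 fold change of all genes by 0.16 (0.156, against −0.004 with TMM factors), and list medians below are those with TMM factors. In the mitosis list, 38 of 49 genes were lower at 6 h than at 3 h, with a median of −0.36, and 26 were lower when scaled by totals. Of 45 replication genes, 33 were lower, and 27 when scaled by totals. The ribosomal protein genes, of which 3 had passed against 0 h, were lower at 6 h than at 3 h in 75 of 84 genes (median −0.47), and in 72 when scaled by totals. Their summed level was 197000 to 209000 TPM at 0 h, 222000 to 234000 at 3 h and 196000 to 198000 at 6 h. Of 59 growth factor and insulin genes, 37 were higher at 6 h than at 3 h and 2 lower, against 43 and 2 when scaled by totals. Their summed level was 2190 to 2550 TPM at 0 h, 1840 to 2000 at 3 h and 2520 to 2620 at 6 h. In the summed levels of both these lists, the 3 h libraries lay outside the range of the 0 h and 6 h libraries. With TMM factors, cdc20 and slc7a3a had log2 fold changes of −0.70 and 0.54 in this contrast (edgeR adjusted p = 7.5e-08 and 1.8e-06), while cth had 0.03 (edgeR adjusted p = 0.64).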

How the data were processed

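PAC-2 libraries were made from poly-A selected RNA and sequenced as paired-end reads. The reads were mapped to GRCz11 by the sequencing provider, and the authors deposited raw counts per gene as whole numbers. Which aligner, counter, gene annotation and strand option were used is not given in the sources used here. Overlapping genes and near-identical copies are therefore uncertain. Loci without an annotated gene were kept. All 12 PAC-2 libraries were fitted with edgeR 4.0.16 in R 4.3.3 (filterByExpr, TMM, robust glmQLFit, glmQLFTest, time only), with 8 residual degrees of freedom and Benjamini-Hochberg adjustment over 18017 genes. The median biological coefficient of variation was 0.102. Normalized counts are TMM-scaled to the mean library size, and TPM was computed from the counts and the gene lengths in the table. With 3 libraries a group, the smallest p of an exact two-sided permutation test is 0.1. The fit was tested on simulated data. Replicates of a time differed by more than sampling noise, and all were kept as separate libraries. The chi-square per gene was 3.59 to 4.23 between 6 h libraries and 5.92 to 12.0 between 0 h libraries, highest for 0 h replicates 1 and 3.

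Gene lists (50 by function) were matched by symbol. The members and lists were chosen with earlier results of these data known. Genes are named if they are among the 4 members of a described list with the smallest adjusted p in each direction, the 15 moderate genes of each direction with the smallest adjusted p and no overlap between groups, or the 12 largest increases and all decreases of at least 2-fold, and on none of 4 excluded lists. Others are marked as looked up after values were seen. Alternatives were DESeq2 1.42.0, RLE factors, library totals, no filter, 6 h and 0 h alone, a replicate block, each library left out, a gene-length trend removed and edgeR's glmTreat at a fold of 1.2. The FPKM table and the tables of de novo assembled transcripts were not used. No sequences are shown, since the references used here hold gene names only. A few genes that the rule covers are not reported here.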

Additional observations from a re-analysis of the deposited data

How the results depend on the processing

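Across 16 other settings, 93 of 96 counts of calls stayed within 1.5 times the reported value. The exceptions were edgeR's test against a fold of 1.2, which 1071 genes passed as higher and 547 as lower in place of 2546 and 2686, and the 2-fold decreases, which were 21 without 0 h replicate 1 in place of 13. With 1 library left out at a time, the higher and lower genes numbered 1958 to 2804 and 1997 to 2842, the moderate ones 651 to 1035 and 324 to 589, and the 2-fold ones 223 to 265 and 15 to 21. With the replicate block, 2574 genes were higher and 2669 lower. The labels give the libraries of each time the same replicate numbers. Deviations of same-numbered libraries at 6 h and 0 h correlated at 0.136, −0.00096 and 0.191, not all above 0.1, and the main fit used no pairing. 6 h replicate 2 correlated more with 0 h replicate 1 (0.134) than with its own number. Other pairs of times were not compared in this way. From replicate 1 to 3, TMM factors fell at 0 h (1.036, 1.015 and 0.971) and at 1 h (1.032, 1.023 and 0.981). Whether same-numbered libraries share an origin was not tested. DESeq2 called 2364 higher and 2691 lower genes. Of 366 genes covered by the naming rule, none changed sign in any setting and 204 stayed past the threshold in all of them; the 162 others missed it in at least 1 setting, among them the test against a fold of 1.2. Removing a trend with gene length, or with gene span, or keeping only genes with a mean of at least 100 normalized counts (both the span trend and this minimum were chosen after seeing the data) gave 771, 770 and 661 moderate genes higher. Both trends changed only the fold change and kept the main fit's adjusted p, so that no gene could miss the p threshold under them. The minimum only readjusted the main p-values over fewer genes. These settings, counted among the 16, therefore say little about which genes pass. Depth limits the genes under about 100 normalized counts, such as her8a and frs3, whose errors are wide.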
